A study of Rattus norvegicus with 30 samples.

Results

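The mitochondrial respiratory chain genes encoded in the nucleus are described here in rat hepatocytes given chlorpromazine HCl, an antipsychotic drug of the phenothiazine class. The set was a list of 48 gene symbols for subunits of complexes I to V and for cytochrome c, and each gene was read from the probe set that named it alone and had the highest mean signal over the 30 arrays. A measurement was available for 44 of the 48 genes, among 11503 genes tested: 21 of complex I, 4 of complex II, 5 of complex III, 6 of complex IV and 8 of complex V. Ndufa10, Uqcrb, Cycs and Cox7a2 were left out because every probe set for them was annotated to several genes.

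The respiratory chain is a series of protein complexes in the inner mitochondrial membrane. Complex I takes electrons from NADH and complex II takes them from succinate. Both reduce ubiquinone, from which complex III passes electrons through cytochrome c to complex IV, where oxygen is reduced to water. Complexes I, III and IV pump protons across the membrane, and complex V, the ATP synthase, uses the return of those protons to make ATP. Nearly all subunits are made from nuclear genes and imported, while a few core subunits of every complex except complex II are encoded by mitochondrial DNA. Hepatocytes are rich in mitochondria.

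The cells were hepatocytes of male Sprague Dawley rats, bought frozen, plated on collagen under Matrigel and dosed on day 3 of culture. The groups were vehicle (1% DMSO), 0.8 µM chlorpromazine HCl and 20 µM chlorpromazine HCl, each harvested at 24 and at 48 h, with 5 wells and 5 arrays per group. Since no separate animals are named for these cultures, a p-value here reflects how far cultures of 1 group differ. DMSO content is not given in the titles of treated samples, although their dosing solutions are described as made in DMSO. One vehicle array grouped at 24 h by its time entry (replicate 2) carries 2 h in its title.

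The values were array signals whose trimmed mean was near 1500 on every array, and they are reported as log2 signal. The number of arrays, 5 per group, limits the precision. The 44 genes were bright: their median percentile was 96.4 among all genes tested, and 38 lay above the 90th percentile. Their median standard deviation within groups was 0.079 log2 units, against 0.187 for all genes. Among the members the pooled standard deviation within groups ran from 0.047 for Ndufs8 to 0.49 for Ndufa5. The GAPDH 3'/5' signal ratio, a measure of RNA integrity, was 1.11 to 1.20 over the 30 arrays and that of actin was 2.09 to 2.73, and the ranges of both overlapped between all groups. In a culture of many cells, fewer cells of a type and less RNA per cell cannot be told apart.

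At 24 h, 20 µM chlorpromazine HCl was accompanied by small falls. By limma's adjusted p under 0.05, 13 of the 44 genes were lower than in vehicle and none was higher. The 13 were 7 of 21 genes of complex I, 3 of 4 of complex II, 0 of 5 of complex III, 1 of 6 of complex IV and 2 of 8 of complex V. Among all genes tested, 10.4% were called lower and 13.4% higher in this comparison, against 29.5% and 0% of the 44 genes. The estimate was below 0 for 37 of the 44 genes, and the median change of the 44 was -0.08 log2 units against 0.01 for all genes. By complex the median was -0.09 in I, -0.15 in II, 0.02 in III, -0.08 in IV and -0.06 in V. The count depended on the scaling: with each array centred on its median, 4 genes were lower and none was higher, with a median of -0.06. It also depended on the arrays, with 6 to 14 genes lower when any 1 array was left out; it was 7 without 20 µM replicate 1, 6 without 20 µM replicate 2 and 6 without vehicle replicate 4.

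At 48 h calls were made in both directions, and a change of the effect between the times was called for 3 of the 44 genes, given below. At 20 µM, 5 of the 44 genes were lower than in vehicle and 6 were higher, against 14.9% of all genes lower and 20.3% higher. These were 11.4% and 13.6% of the 44 genes, both under the share over all genes, and their median change was 0.01 against 0.04 for all genes. The genes that were lower were Ndufs3, Sdha, Sdhb, Sdhd and Atp5f1b, and each of them was also lower at 24 h. The genes that were higher were Ndufs4, Ndufb2, Ndufb10, Uqcrfs1, Uqcrh and Atp5me, and none of them was called at 24 h. For Atp5me a second probe set was called lower at 48 h, as given below. With centred arrays the counts at 48 h were 2 lower and 7 higher. The count of lower genes was 2 without 20 µM replicate 2, 3 or 5 or vehicle replicate 4 or 5, and 3 without 20 µM replicate 4. On the same arrays the summed signal of 6 Kupffer cell and macrophage markers was lower at 20 µM: 11708 to 12850 in vehicle and 9902 to 11035 at 20 µM at 24 h, and 10805 to 12519 and 8284 to 9706 at 48 h. These ranges did not overlap, but Lyz2 alone gave 56.6% to 81.8% of the sum on these arrays. Without Lyz2 the sum of the other 5 was 3201 to 4346 in vehicle and 3519 to 4094 at 20 µM at 24 h, which overlapped, and 2157 to 2713 and 2966 to 4066 at 48 h, higher at 20 µM. Cd68 was the brightest of these 5, with a mean log2 signal of 10.49 against 7.84 to 9.09, and the 1 called higher at 48 h. The median change of the 6 markers at 48 h was -0.22. The summed hepatocyte markers overlapped at both times, and the part of other cell types in the changes of the respiratory chain genes was not tested.

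**Figure D1:**
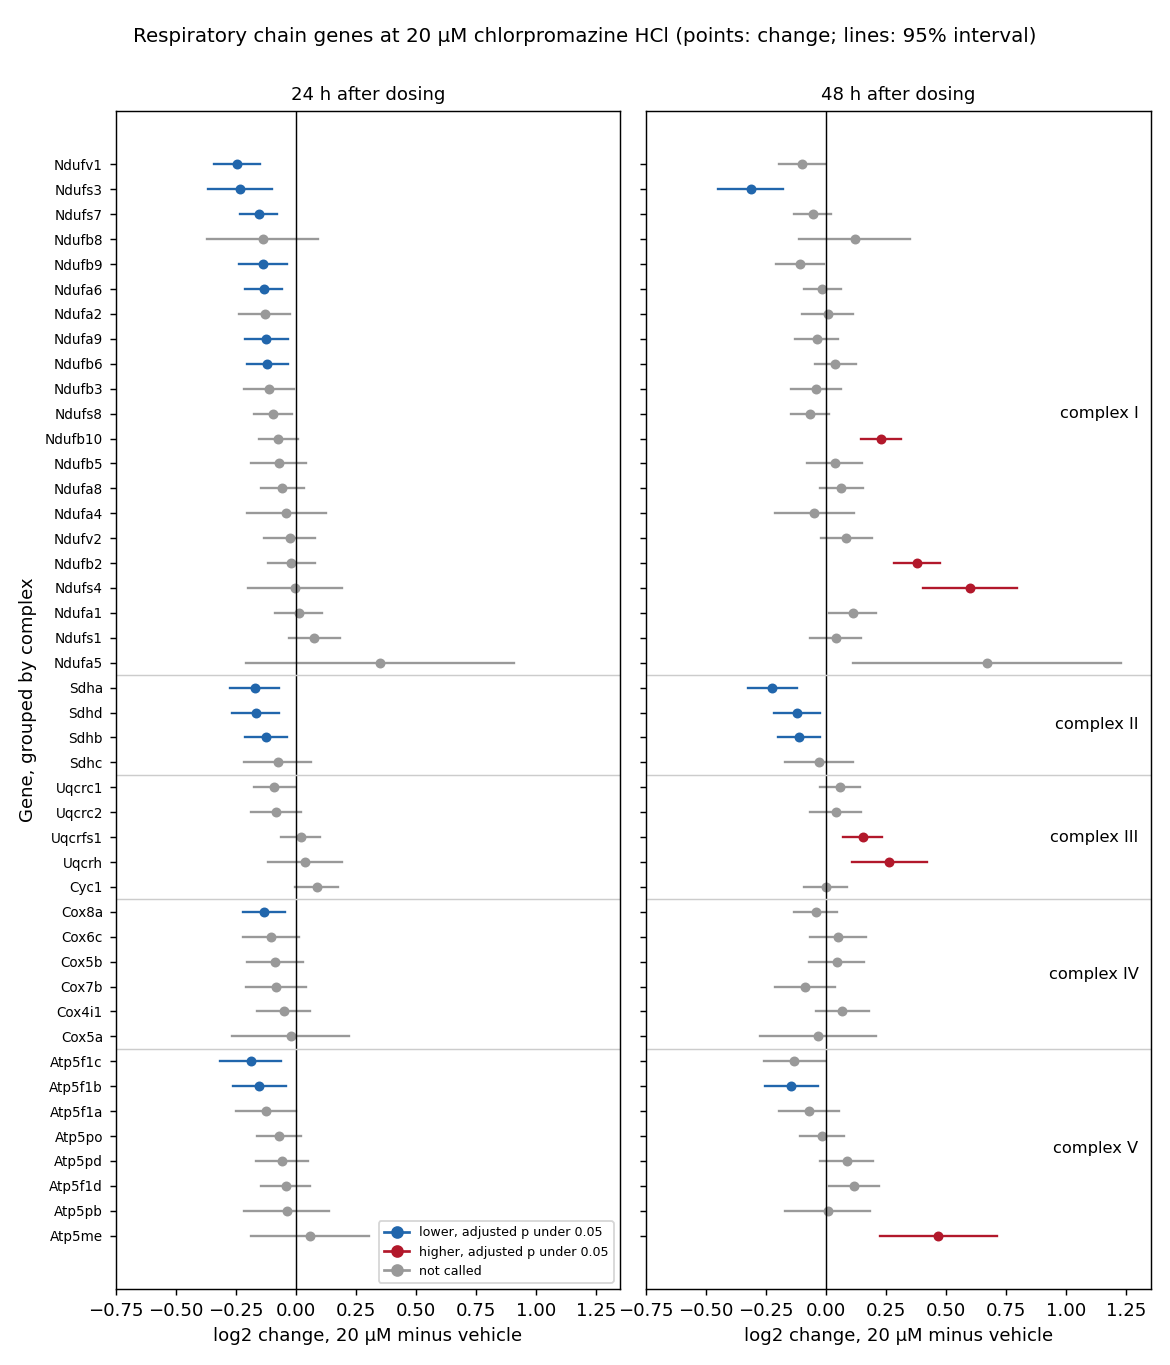
The horizontal axis gives the log2 change of each of the 44 genes at 20 µM minus vehicle, at 24 h (left) and 48 h (right), with its 95% interval as a line, and the rows are grouped by complex and ordered by the change at 24 h. Blue marks the 13 and 5 genes called lower, red the 0 and 6 genes called higher, and grey the rest; the widest interval is that of Ndufa5.

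The members that stood furthest from vehicle at 20 µM, in a call that no alternative setting or left-out array ended at 48 h, included Ndufs3 and Sdha on the low side and Ndufs4 and Ndufb2 on the high side. Their start regions are printed so that the letters upstream of genes that moved in opposite directions can be compared. Each stretch runs from 250 bases before to 20 bases after the annotated start, 5′ to 3′ on the gene's own strand, from RefSeq on build GRCr8. Capitals mark matches to any of 4 motifs searched on both strands: GCGCANGCG (NRF1), CCGGAAG (ETS factors such as GABPA), AAGATGGC (YY1) and AAGGTCA (estrogen-related receptors). NRF1, GABPA, YY1 and the estrogen-related receptors are known regulators of nuclear genes for mitochondrial proteins.
Ndufs3, chr3:97339635-97339904, minus strand: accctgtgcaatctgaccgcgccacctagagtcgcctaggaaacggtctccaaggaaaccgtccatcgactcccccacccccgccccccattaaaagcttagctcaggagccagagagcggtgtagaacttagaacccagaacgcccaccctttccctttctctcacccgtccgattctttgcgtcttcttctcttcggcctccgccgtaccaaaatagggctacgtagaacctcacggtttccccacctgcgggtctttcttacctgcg
Sdha, chr1:30764303-30764572, plus strand: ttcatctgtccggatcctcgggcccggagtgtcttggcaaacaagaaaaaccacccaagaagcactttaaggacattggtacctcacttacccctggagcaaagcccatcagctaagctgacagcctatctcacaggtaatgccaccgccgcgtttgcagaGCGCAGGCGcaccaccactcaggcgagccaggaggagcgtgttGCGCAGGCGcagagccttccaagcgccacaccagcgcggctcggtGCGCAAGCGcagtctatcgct
Ndufs4, chr2:47794895-47795164, minus strand: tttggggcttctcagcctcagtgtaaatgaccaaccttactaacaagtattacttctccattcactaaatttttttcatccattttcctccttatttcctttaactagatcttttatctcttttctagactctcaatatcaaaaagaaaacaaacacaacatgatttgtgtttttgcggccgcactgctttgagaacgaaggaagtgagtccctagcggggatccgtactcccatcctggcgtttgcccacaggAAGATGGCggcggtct
Ndufb2, chr4:69334057-69334326, plus strand: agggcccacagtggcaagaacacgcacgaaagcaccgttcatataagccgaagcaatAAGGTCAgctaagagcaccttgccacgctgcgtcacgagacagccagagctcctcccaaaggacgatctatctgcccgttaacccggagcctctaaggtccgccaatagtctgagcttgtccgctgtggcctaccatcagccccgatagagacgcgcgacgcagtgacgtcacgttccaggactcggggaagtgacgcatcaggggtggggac

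The window of Sdha held 3 matches to the NRF1 motif, Ndufs4 had 1 YY1 match just after its start, Ndufb2 had 1 match to the receptor motif, and Ndufs3 had no match to the 4 motifs. RefSeq promoter windows of 300 bases (250 before to 50 after the start) were matched for 39 of the 44 genes. The NRF1 motif was in 8 of the 39 windows (20.5%, against 5.8% of the 33469 windows of all annotated genes), the ETS motif in 14 (35.9%, against 8.75%), the YY1 motif in 11 (28.2%, against 3.17%) and the receptor motif in 4 (10.3%, against 4.61%). The windows of all annotated genes were not limited to the genes tested or matched to the 39 in signal. No match of one motif overlapped a match of another in the 39 windows. Of the 12 genes called lower at either time at 20 µM that had a window, 3 held the NRF1 motif, 4 the ETS motif, 4 the YY1 motif and 2 the receptor motif. Of the 6 genes called higher, 2 held the NRF1 motif, 2 the ETS motif, 2 the YY1 motif and 1 the receptor motif. Atp5me, whose probe sets differed in direction, was among those with the NRF1, ETS and YY1 motifs. Among the 21 genes with a window and no call at either time, the counts in the same order were 3, 8, 5 and 1. A match is a description of letters and not of binding.

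Complex I, with 21 of the 44 genes tested, held 7 of the 13 genes that were lower at 24 h. They belonged both to the arm that oxidises NADH and to the membrane arm. Ndufv1, which carries the flavin that accepts electrons from NADH, had log2 signals of 13.48, 13.58, 13.51, 13.46 and 13.49 in vehicle at 24 h. At 20 µM they were 13.20, 13.32, 13.28, 13.23 and 13.25. Every array at 20 µM lay below every vehicle array, and Ndufv1 fell by 0.25 ± 0.047 (SE, n = 5), or 1.19-fold, with a limma adjusted p of 0.000169. At 48 h its vehicle values were 13.22, 13.34, 13.19, 13.38 and 13.40, already near those of 20 µM at 24 h. The values at 20 µM and 48 h were 13.21, 13.15, 13.14, 13.35 and 13.17, which overlapped vehicle, and the change of -0.10 was not called (adjusted p = 0.0980).

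Ndufs3, a core subunit of the part of complex I that reduces ubiquinone, was lower at both times. Its log2 signals at 24 h were 13.56, 13.46, 13.48, 13.58 and 13.67 in vehicle and 13.21, 13.20, 13.37, 13.44 and 13.37 at 20 µM. At 48 h they were 13.53, 13.69, 13.67, 13.59 and 13.62 in vehicle and 13.29, 13.21, 13.35, 13.44 and 13.25 at 20 µM. The groups did not overlap at either time, and the fall was 0.23 ± 0.066 at 24 h (adjusted p = 0.00886) and 0.31 ± 0.066 at 48 h (adjusted p = 0.000287), or 1.24-fold.

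Ndufs7, a core subunit that holds an iron-sulfur cluster next to the ubiquinone site, had vehicle values of 14.17, 14.34, 14.22, 14.27 and 14.23 at 24 h. At 20 µM its values were 14.08, 14.07, 14.10, 14.10 and 14.10, close together and all below vehicle. It fell by 0.15 ± 0.038 (adjusted p = 0.00268). The calls of Ndufv1, Ndufs3 and Ndufs7 at 24 h held under every alternative setting and without each array in turn.

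The other 4 complex I genes called lower at 24 h were accessory subunits, and none of their calls held under all settings. Ndufa6 fell by 0.13 (adjusted p = 0.00824), from vehicle values between 14.60 and 14.65 to values between 14.45 and 14.53; its call was lost by either rescaling but by no left-out array. Ndufb9 fell by 0.14 (adjusted p = 0.0375), Ndufa9 by 0.12 (adjusted p = 0.0373) and Ndufb6 by 0.12 (adjusted p = 0.0371). Leaving out any of 6, 6 and 7 of the 10 arrays, in that order, ended those 3 calls, and the vehicle array titled 2 h was among them each time. Without that array 9 of the 44 genes were lower.

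Over the whole set, the arrays of vehicle and 20 µM did not overlap at 24 h for 8 genes, all lower at 20 µM (7 of the called genes and Ndufs8), against 7.55% of all genes lower and 9.28% higher without overlap. At 48 h, 3 genes lay wholly below vehicle and 5 wholly above, against 11.2% and 14.8% of all genes.

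Ndufs1, the largest iron-sulfur subunit of complex I, showed no called change. Its means were 12.89 ± 0.076 in vehicle, 12.92 ± 0.022 at 0.8 µM and 12.97 ± 0.066 at 20 µM at 24 h (SD, n = 5). At 48 h they were 12.83 ± 0.057, 12.82 ± 0.086 and 12.87 ± 0.12 in the same order, and the 95% interval of the change at 20 µM was -0.03 to 0.18 at 24 h and -0.07 to 0.15 at 48 h. Ndufv1, its neighbour in the same arm, had means of 13.42 ± 0.078 and 13.35 ± 0.035 at 0.8 µM.

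Complex I also held 3 of the 6 genes that were higher at 48 h, all accessory subunits. These were 14.3% of its 21 genes tested, under the 20.3% of all genes called higher. Ndufs4, which lies in the NADH-oxidising arm and whose loss is a known cause of Leigh syndrome, had log2 signals of 12.16, 12.11, 12.01, 11.91 and 11.89 in vehicle at 48 h. At 20 µM they were 12.63, 12.59, 12.85, 12.52 and 12.50, all above vehicle. The rise was 0.60 ± 0.096, or 1.51-fold, with an adjusted p of 6.61e-06, the largest change that was called among the 44 genes. At 24 h the values were 12.07, 12.22, 12.44, 12.29 and 12.29 in vehicle and 12.57, 12.33, 12.18, 12.18 and 12.04 at 20 µM, and the groups overlapped.

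Ndufb2, a subunit of the membrane arm, had values of 13.86, 13.95, 13.91, 13.91 and 13.81 in vehicle at 48 h and 14.27, 14.28, 14.30, 14.27 and 14.22 at 20 µM. The groups were far apart, and the rise was 0.38 ± 0.048 (adjusted p = 1.01e-07). Its values at 24 h were 14.17, 14.12, 14.13, 14.31 and 14.08 in vehicle and 14.12, 14.20, 14.19, 14.12 and 14.09 at 20 µM, which overlapped throughout.

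Ndufb10, another membrane arm subunit, had values of 13.89, 13.76, 13.84, 13.86 and 13.86 in vehicle at 48 h and 14.10, 14.12, 14.13, 14.01 and 13.999 at 20 µM. Again the groups did not overlap, with a rise of 0.23 ± 0.040 (adjusted p = 2.67e-05). The calls of Ndufs4, Ndufb2 and Ndufb10 at 48 h held under every alternative setting and left-out array. Ndufa5 had the highest estimate at 48 h, 0.67, but its vehicle arrays alone ran from 11.88 to 14.30 and it was not called (95% interval 0.11 to 1.23, adjusted p = 0.0554). The other 10 complex I genes that were not called at either time had changes between -0.14 and 0.12. Ndufa4, listed here by its name with complex I but now regarded as a subunit of complex IV, was among them, with changes of -0.04 and -0.05.

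**Figure D2:**
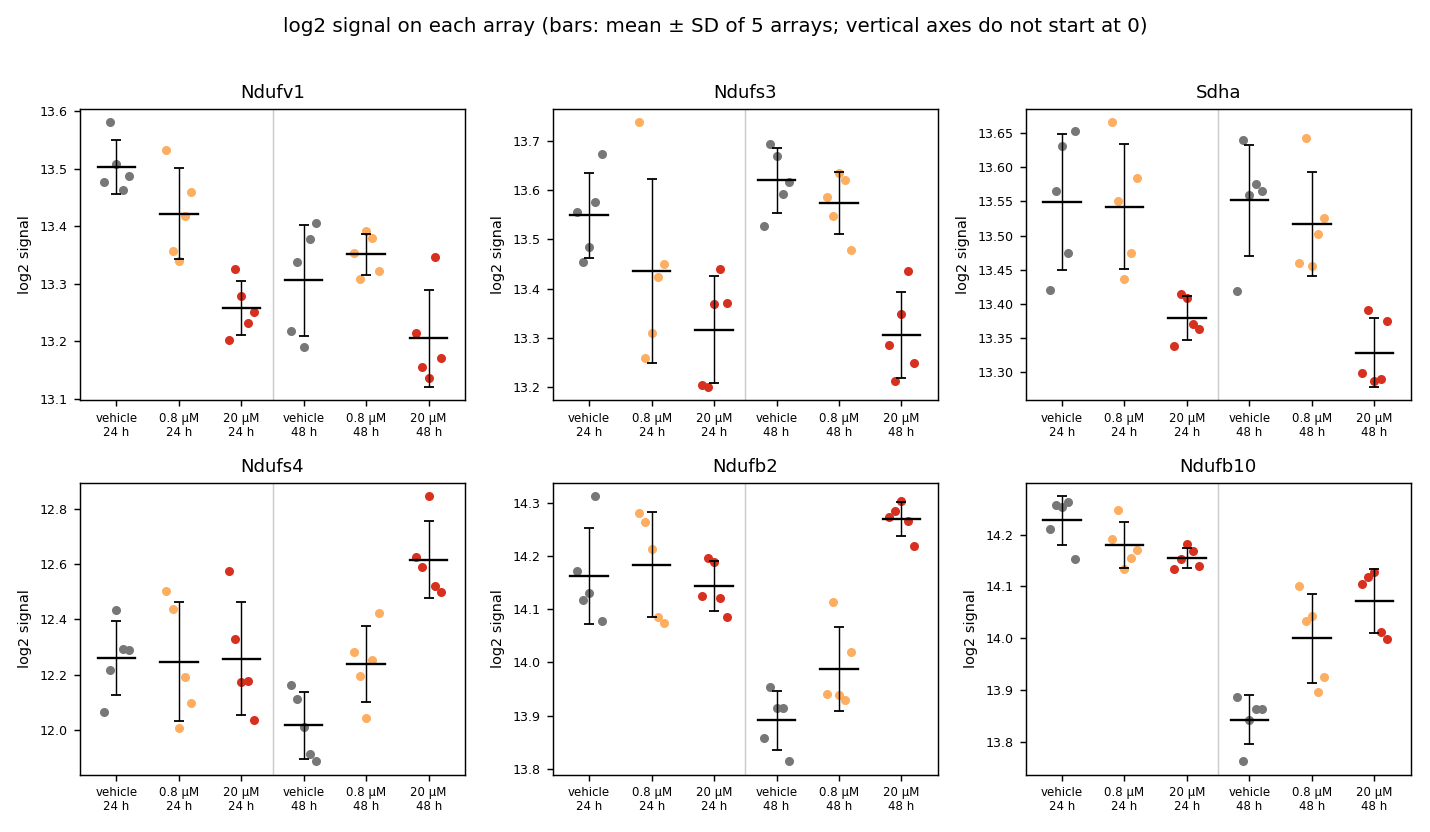
Each point is the log2 signal of 1 array, with the mean and SD of the 5 arrays of a group. At 20 µM against vehicle, Ndufv1 was called lower at 24 h alone, and Ndufs3 and Sdha were called lower at both times. Ndufs4, Ndufb2 and Ndufb10 were called higher at 48 h alone. For Ndufb2 the 20 µM arrays at 48 h sit at 14.22 to 14.30 and the vehicle arrays at 13.81 to 13.95; the vertical axes differ between genes and do not start at 0.

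Complex II, succinate dehydrogenase, links the citric acid cycle to the chain, and 3 of its 4 genes were lower at 20 µM at both times. Sdha, the flavin-bearing subunit that oxidises succinate, had log2 signals of 13.42, 13.57, 13.63, 13.47 and 13.65 in vehicle and 13.34, 13.41, 13.41, 13.37 and 13.36 at 20 µM at 24 h. At 48 h they were 13.42, 13.64, 13.56, 13.58 and 13.56 in vehicle and 13.30, 13.39, 13.29, 13.29 and 13.38 at 20 µM. The highest 20 µM array lay just below the lowest vehicle array at both times. Sdha fell by 0.17 ± 0.050 at 24 h (adjusted p = 0.0115) and by 0.22 ± 0.050 at 48 h (adjusted p = 0.000613), or 1.17-fold. Leaving out any 1 array kept both calls.

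Sdhb, the iron-sulfur subunit, had means of 14.78 ± 0.046 in vehicle, 14.69 ± 0.049 at 0.8 µM and 14.66 ± 0.099 at 20 µM at 24 h. At 48 h the means were 14.74 ± 0.042, 14.66 ± 0.067 and 14.63 ± 0.046 in the same order. It fell by 0.12 at 24 h (adjusted p = 0.0316) and by 0.11 at 48 h (adjusted p = 0.0420), with overlap at 24 h and none at 48 h, where the highest 20 µM array and the lowest vehicle array were both near 14.70. Sdhd, a membrane anchor, fell by 0.17 at 24 h (adjusted p = 0.00927) and by 0.12 at 48 h (adjusted p = 0.0464), with overlapping arrays both times. A second probe set of Sdhd was not called at either time, with changes of -0.05 and -0.12. Sdhc, the other anchor, changed by -0.08 and -0.03 and was not called. The 48 h calls of Sdhb and Sdhd were each lost without any of 6 of the 10 arrays, and centring the arrays ended both calls at both times.

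Complex III, which oxidises ubiquinol, had no gene called at 24 h and 2 of 5 called higher at 48 h. Uqcrfs1, the Rieske iron-sulfur protein, had vehicle values of 14.92, 14.76, 14.83, 14.91 and 14.91 at 48 h and 20 µM values of 15.10, 14.97, 14.998, 15.05 and 14.97. The groups did not overlap, and the rise was 0.15 ± 0.040 (adjusted p = 0.00274). At 24 h its means were 15.04 ± 0.017 in vehicle, 15 ± 0.028 at 0.8 µM and 15.06 ± 0.049 at 20 µM, and at 48 h the mean at 0.8 µM was 14.90 ± 0.079.

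Uqcrh, the hinge protein that helps cytochrome c dock, had values of 15.33, 14.96, 15.22, 15.29 and 15.30 in vehicle at 48 h and 15.63, 15.52, 15.51, 15.45 and 15.30 at 20 µM. One vehicle array was low and the groups overlapped, with a rise of 0.26 ± 0.076 (adjusted p = 0.00661) that held without any 1 array. Cyc1, cytochrome c1, had means of 14.19 ± 0.042, 14.17 ± 0.089 and 14.28 ± 0.092 in vehicle, at 0.8 µM and at 20 µM at 24 h, and of 14.19 ± 0.028, 14.13 ± 0.061 and 14.19 ± 0.032 at 48 h. It was not called at 20 µM, with changes of 0.09 and -0.0022; under quantile normalization the change at 24 h was 0.12 and was called. The core proteins Uqcrc1 and Uqcrc2 changed by 0.06 and 0.04 at 48 h without a call. A dimmer second probe set of Uqcrc2 was higher at 48 h, by 0.31 (adjusted p over all probe sets = 0.00035), so the 2 probe sets of this gene disagreed.

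Complex IV, cytochrome c oxidase, had 1 call in 6 genes. Cox8a, a small subunit, had values of 15.53, 15.55, 15.64, 15.62 and 15.50 in vehicle at 24 h and 15.40, 15.37, 15.51, 15.45 and 15.46 at 20 µM, which overlapped at the edge. It fell by 0.13 ± 0.043 at 24 h (adjusted p = 0.0223), a call lost without any of 4 arrays and with centred arrays, and at 48 h the change was -0.04. Cox4i1, a subunit at which ATP acts on the enzyme, had means of 15.87 ± 0.082, 15.81 ± 0.045 and 15.82 ± 0.077 in vehicle, at 0.8 µM and at 20 µM at 24 h. At 48 h they were 15.74 ± 0.086, 15.70 ± 0.11 and 15.81 ± 0.091, and the 95% intervals of the change at 20 µM were -0.16 to 0.06 and -0.04 to 0.18. Cox5a had means of 11.44 ± 0.15, 11.47 ± 0.18 and 11.42 ± 0.22 at 24 h and of 11.53 ± 0.23, 11.49 ± 0.14 and 11.50 ± 0.27 at 48 h in the same order. Its intervals were wider, -0.26 to 0.22 and -0.28 to 0.21, and its brighter probe set was not used because it was annotated to several genes. The changes of Cox5b, Cox6c and Cox7b at 20 µM lay between -0.10 and 0.05 over both times.

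Complex V, the ATP synthase, had 2 of 8 genes lower at 24 h, both in its catalytic head and rotor. Atp5f1b, the catalytic beta subunit, had means of 15.18 ± 0.057, 15.10 ± 0.073 and 15.03 ± 0.0996 in vehicle, at 0.8 µM and at 20 µM at 24 h, and of 15.13 ± 0.13, 15.02 ± 0.076 and 14.98 ± 0.067 at 48 h. It fell by 0.15 ± 0.054 at 24 h (adjusted p = 0.0395) and by 0.14 ± 0.054 at 48 h (adjusted p = 0.0371). The arrays overlapped at both times, and 5 of 10 arrays at 24 h and 7 of 10 at 48 h each ended the call when left out. Atp5f1c, the gamma subunit of the rotor shaft, fell by 0.19 ± 0.062 at 24 h (adjusted p = 0.0263; lost without any of 4 arrays) and by an uncalled 0.13 at 48 h.

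Atp5me, the e subunit of the membrane part, was the 1 ATP synthase gene called higher at 48 h. Its values were 13.43, 13.53, 13.50, 13.62 and 13.24 in vehicle and 14.16, 14.06, 14, 13.78 and 13.66 at 20 µM, without overlap, a rise of 0.47 ± 0.12 (adjusted p = 0.00236). Its second probe set, which was dim (mean log2 signal 8.31), went the other way. It changed by -0.82 (limma adjusted p over all probe sets = 0.035), so the 2 probe sets were called in opposite directions. The mean of both probe sets changed by -0.18. The other 5 genes (Atp5f1a, Atp5f1d, Atp5po, Atp5pb and Atp5pd) had changes between -0.12 and 0.12 at 20 µM and no call.

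At 0.8 µM, none of the 44 genes was called against vehicle at 24 h, where 0.426% of all genes were lower and 0.4% higher. The estimate was below 0 for 35 of the 44 genes, with a median of -0.06 against 0.01 for all genes, and 4 genes lay wholly below vehicle and none wholly above, against 1.11% and 1.12% of all genes. With centred arrays the median was -0.07 at 0.8 µM and -0.06 at 20 µM, and both doses were set against the same vehicle arrays. The smallest adjusted p was that of Ndufs7, 0.0962, with a change of -0.13; at a threshold of 0.10 it would be the 1 gene called. The 95% interval lay within 0.25 log2 units of 0 for 38 of the 44 genes at 24 h and for 38 at 48 h. At 48 h 1 gene was called, Ndufb10, against 1.74% of all genes lower and 1.59% higher. Its values at 0.8 µM were 14.10, 14.03, 14.04, 13.90 and 13.93, all above the vehicle arrays given earlier, a rise of 0.16 ± 0.040 (adjusted p = 0.0252), which was lost without any of 4 arrays. For Ndufb2 the change at 48 h was 0.10 at 0.8 µM and 0.38 at 20 µM. For Ndufs4 it was 0.22 and 0.60, and the values at 0.8 µM were not called for either gene.

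Compared directly with 0.8 µM, 20 µM had 5 genes lower and none higher at 24 h, against 6.94% of all genes lower and 8.69% higher. Ndufb8, a membrane arm subunit, was lower by 0.34 ± 0.11 with overlapping arrays (adjusted p = 0.0404), Ndufb5 fell by 0.17 and Sdha fell by 0.16. Ndufv1 and Ndufs8 were also lower. The count was 1 to 5 when 1 array was left out (3 or fewer without 20 µM replicate 1, 2, 4 or 5 or 0.8 µM replicate 1, 2 or 5), and none was lower with centred arrays. At 48 h, 3 genes were lower and 4 higher, against 12.4% and 14.6% of all genes. Ndufs3 fell by 0.27 ± 0.066 (adjusted p = 0.00226), Sdha fell by 0.19 ± 0.050 (adjusted p = 0.00451) and Ndufv1 fell by 0.15. The rises were 0.49 in Atp5me, 0.38 in Ndufs4, 0.28 in Ndufb2 and 0.12 in Uqcrfs1. The rises of Ndufs4 and Ndufb2 and the falls of Ndufs3 and Sdha against 0.8 µM at 48 h held under every setting and left-out array, and the direction of Atp5me again differed between its probe sets.

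Vehicle cultures themselves changed with time. The comparison of the times shared the vehicle arrays of 24 h, among them the array titled 2 h, with the 24 h comparisons of both doses. The 44 genes had a mean log2 signal of 14.44 in vehicle at 24 h and of 14.34 to 14.40 in the other groups. Between 24 and 48 h in vehicle, 10 of the 44 genes fell and none rose, against 6.71% of all genes lower and 6.49% higher; 37 estimates were below 0 and the median was -0.07 against -0.02 for all genes. Ndufb10 fell by 0.38 ± 0.040 (adjusted p = 4.08e-08), from 14.21, 14.26, 14.25, 14.26 and 14.15 at 24 h to values that were all lower at 48 h. Ndufb8 fell by 0.35 ± 0.11 (adjusted p = 0.0389) and Ndufb2 by 0.27 ± 0.048 (adjusted p = 0.000156). The call of Ndufb2 held under every setting and left-out array, while that of Ndufb8 was lost without any of 8 of the 10 arrays. The other 7 were Uqcrc1, Atp5f1d, Ndufv1, Uqcrfs1, Cox5b, Ndufs7 and Cox8a, with falls of 0.14 to 0.24. Among these 7, the call of Cox5b was lost without any of 8 arrays and that of Cox8a without any of 4. The genes that fell came from every complex except complex II. With centred arrays 6 remained, and without the array titled 2 h 8 remained.

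The same interval was compared within each dose. At 0.8 µM, Ndufb2 fell by 0.20 (adjusted p = 0.00896) and Ndufb10 fell by 0.18 (adjusted p = 0.00415) from 24 to 48 h, with no rise, against 2.85% of all genes lower and 3.4% higher. At 20 µM no gene fell and 3 rose, against 5.36% of all genes lower and 5.04% higher: Ndufs4 by 0.36 ± 0.096 (adjusted p = 0.0126), Ndufa8 by 0.14 and Ndufa6 by 0.11. The last pair was lost with centred arrays and without any of 6 and 8 arrays in that order, and Ndufs4 without 24 h replicate 5 or 48 h replicate 3. Without the 48 h replicate 3 no gene was called higher, and without the 24 h replicate 1, 2 or 5 or the 48 h replicate 1 or 4 the count was 1.

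The change of the 20 µM effect between the times was tested directly as an interaction. It was called for 3 genes, all higher, against 2.43% of all genes lower and 1.78% higher. For Ndufs4 the effect rose by 0.60 ± 0.14 (adjusted p = 0.00708), as vehicle went from 12.26 to 12.02 and 20 µM from 12.26 to 12.62. For Ndufb2 it rose by 0.40 ± 0.067 (adjusted p = 0.000316), with vehicle at 14.16 and 13.89 and 20 µM at 14.14 and 14.27. For Ndufb10 it rose by 0.30 ± 0.057 (adjusted p = 0.00115), with vehicle at 14.23 and 13.84 and 20 µM at 14.15 and 14.07. The changes of Ndufb2 and Ndufb10 with time at 20 µM, 0.13 and -0.08, were not called, while both fell in vehicle; Ndufs4 rose with time at 20 µM, and its change of -0.24 in vehicle was not called (adjusted p = 0.0957). All 3 calls held under every setting and left-out array. The comparison of 20 µM with vehicle at 48 h, the vehicle time course and this interaction share the vehicle arrays of 48 h.

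**Figure D3:**
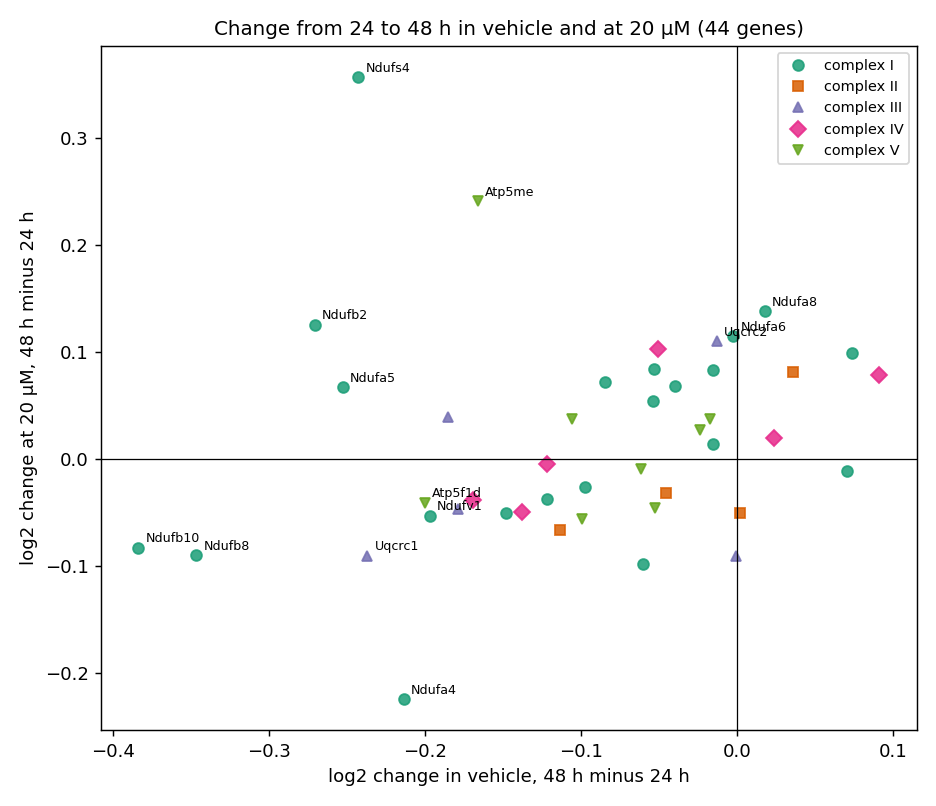
Each of the 44 genes is placed by its log2 change from 24 to 48 h in vehicle (horizontal) and at 20 µM (vertical), 2 comparisons that share no array, with symbols for the 5 complexes. Ndufs4 lies at -0.24 and 0.36, Ndufb2 at -0.27 and 0.13, and Ndufb10 at -0.38 and -0.08.

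Subunits of the same complexes outside the list of 48 were counted in the same way. Of 14 further complex I subunits tested, 1 was lower at 24 h (Ndufv3, which fell by 0.27), and at 48 h 2 were lower and 2 higher, led by Ndufv3 at -0.37, Ndufa12 at 0.25 and Ndufb7 at 0.16. Of 10 further complex III and IV subunits none was called at 24 h and 5 were higher at 48 h, including Cox7a2l, a factor in the joining of complexes III and IV, at 0.43 (adjusted p = 1.08e-07), Uqcr10 at 0.15 and Cox6a2, the muscle form of a complex IV subunit, at 1.21 with a dim signal. Of 8 further ATP synthase genes, Atp5if1, which inhibits the enzyme when it runs backwards, was higher by 0.42 at 24 h and 0.68 at 48 h (adjusted p = 1.62e-09). Atp5mf fell by 0.13 at 24 h, and Dmac2l was 0.31 higher at 48 h. Of the 13 subunits encoded by mitochondrial DNA, COX1 and COX2 were tested, and neither was called; their changes were -0.05 and -0.10 at 24 h and -0.03 and -0.15 at 48 h.

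Genes whose products build the chain were counted by list at 20 µM, where most members of each list at 24 h were not called. Of 40 assembly factors, 7 were higher and 1 lower at 24 h, and 13 were higher and none lower at 48 h, with medians of 0.06 and 0.03 against 0.01 and 0.04 for all genes. Cox11, which delivers copper to complex IV, was higher by 0.59 at 24 h and 0.65 at 48 h. Coa3, which acts on newly made COX1, was higher by 0.43 and 0.73. Among complex I factors, Ndufaf4 was higher by 0.41 at 24 h and Ndufaf7 by 0.66 at 48 h. Of 73 mitochondrial ribosomal proteins, which make the subunits encoded by mitochondrial DNA, 28 were higher and none lower at 24 h and 44 higher and 1 lower at 48 h, with medians of 0.13 and 0.20. The largest changes were in Mrps31 (0.45), Mrps5 (0.41) and Mrpl38 (0.37) at 24 h and in Mrps9 (0.48), Mrps22 (0.43) and Mrpl45 (0.41) at 48 h. Of 27 genes of import, cristae and quality control, 12 were higher and 1 lower at 24 h and 15 higher and 3 lower at 48 h. Among them Timm8a1, a small chaperone of the intermembrane space, was higher by 0.62 at 24 h, and Lonp1, a protease of the matrix, by 0.83 at 48 h, while Clpx, the unfoldase of another matrix protease, fell by 0.35 at 24 h. With centred or quantile-normalized arrays, or without the array titled 2 h, 24 to 31 ribosomal genes and 11 to 14 import genes were higher at 24 h.

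Enzymes that feed electrons into the chain were counted next. Of 8 such enzymes outside the citric acid cycle, 4 were lower and none higher at 24 h, and 5 were lower and 1 higher at 48 h, with medians of -0.20 and -0.19. Etfdh, which passes electrons from fatty acid oxidation to ubiquinone, changed by -0.49 and -0.83 (adjusted p = 5.25e-14 at 48 h), and Prodh, proline dehydrogenase, by -0.69 and -0.66. Dhodh, of pyrimidine synthesis, was the 1 that was higher, by 0.40, and Etfb changed by -0.33 at 24 h. Of 15 genes of pyruvate dehydrogenase and the citric acid cycle, 5 were lower and 1 higher at 24 h and 6 lower and 2 higher at 48 h, led by Idh2 at -0.56 and -0.66 and Pdhb at -0.37 and -0.37; Pdhx was higher by 0.37 at 24 h and Pdha1 by 0.32 at 48 h. Of 12 genes for coenzyme Q synthesis 3 were lower and 2 higher at each time. Coq8a, a regulator of that pathway, changed by -0.87 and -1.27 (adjusted p = 6.24e-12 at 48 h), with Pdss2 at -0.83 and Coq4 at 0.63 at 24 h and Coq10a at 0.58 and Coq7 at -0.51 at 48 h. The share of the 44 chain genes called, and of each of these lists, is to be read against the 10.4% and 14.9% of all genes lower and the 13.4% and 20.3% higher.

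**Figure D4:**
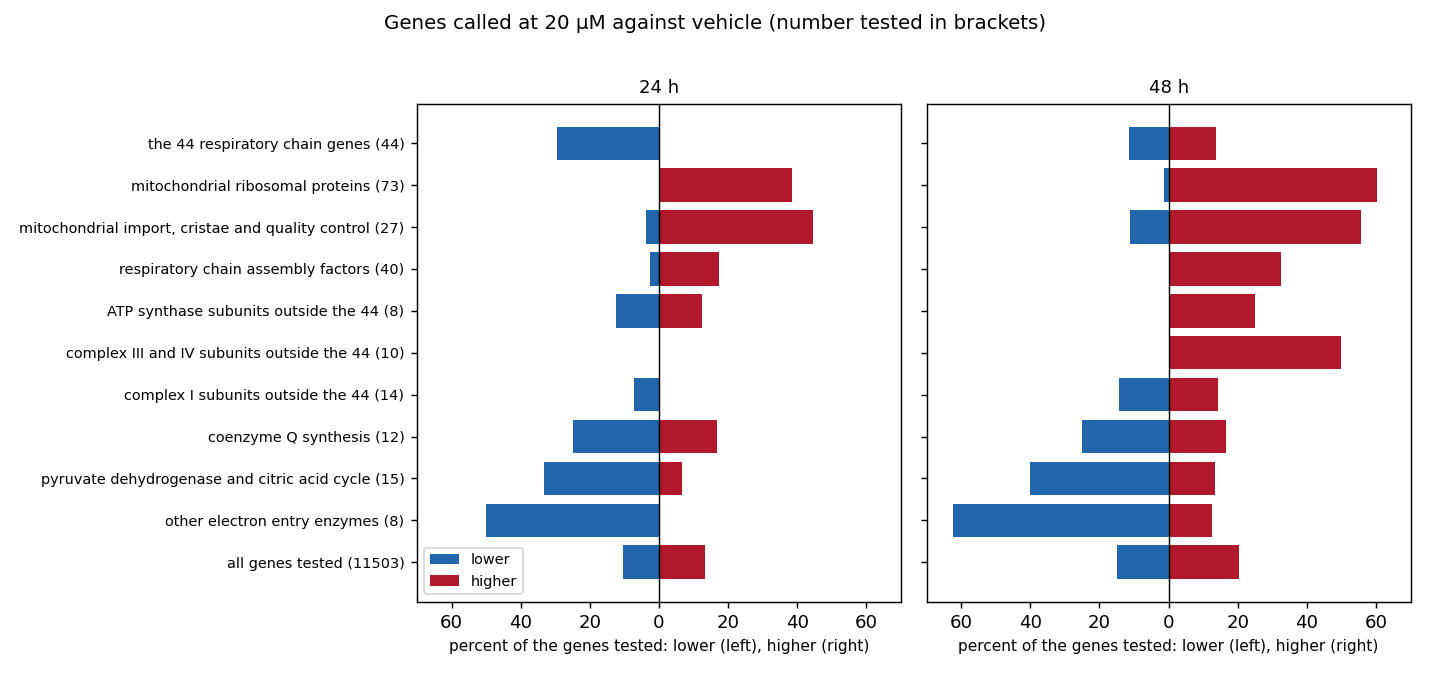
Bars give the percent of the genes tested in each list that were called lower (blue, left) or higher (red, right) at 20 µM against vehicle at 24 h and 48 h, with all 11503 genes in the bottom row. The 44 respiratory chain genes have calls on the lower side alone at 24 h, and the 73 mitochondrial ribosomal proteins have none lower at 24 h and 44 higher at 48 h.

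Among 19 regulators of mitochondrial biogenesis and of mitochondrial DNA, 2 were lower and 1 higher at 24 h and 3 lower and 3 higher at 48 h. The 2 DNA polymerase subunits were lower at 24 h, where Polg2 fell by 0.36 and Polg fell by 0.31, and Polg fell by 0.58 at 48 h. Tfam, which packages mitochondrial DNA, was higher by 0.16 at 24 h, a call lost with quantile normalization and without the array titled 2 h. Ppargc1a, a coactivator of nuclear genes for mitochondrial proteins, changed by -0.42 at 48 h, and Mterf1, a factor at mitochondrial transcription ends, by 0.29. Of 7 carriers, 1 was lower and 2 higher at 24 h and 1 lower and 1 higher at 48 h, with Slc25a4, which exchanges ADP and ATP, at -0.37 and -0.19 and Vdac2, an outer membrane channel, at 0.16 and 0.25. Of 9 mitochondrial antioxidant genes, 2 were lower and 3 higher at 24 h and 2 lower and 4 higher at 48 h. Nnt, which makes NADPH in mitochondria, changed by -0.43 and -0.58, Glrx2 by 0.32 and 0.45 and Sod2, the matrix superoxide dismutase, by 0.31 and 0.45.

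Markers of other liver cells were read on the same arrays. Of 9 hepatocyte markers 1 was lower at 24 h (Apob, -0.52) and 2 at 48 h (Apob, -0.59, and Fgb, -0.25), and their summed signal was 638107 to 798237 in vehicle and 541787 to 757054 at 20 µM at 24 h, and 559367 to 694536 and 525319 to 648975 at 48 h. Of 6 measured markers of Kupffer cells and macrophages (Marco and Vsig4 had no probe set used here, and Adgre1 was too dim to be kept), 1 was lower at 24 h, and 1 was lower and 1 higher at 48 h. Lyz2, a lysozyme of myeloid cells, fell by 0.40 at 24 h and fell by 0.79 at 48 h, and Cd68, a lysosomal protein, rose by 1.44 at 48 h. The summed signals of 7 stellate cell, 4 endothelial and 2 cholangiocyte markers overlapped between vehicle and 20 µM at both times, with 1 call among them, Krt19 at -1.28 at 24 h. Krt19 was dim (mean log2 signal 7.80) and the other cholangiocyte marker, Epcam, was bright (13.3), so that sum was mostly Epcam.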

How the data were processed

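RNA of 30 wells of primary rat hepatocytes was measured on 1 array each. Per the submitters' processing notes, the values were made with MAS5 (version not stated); the deposited values are linear signal intensity per probe set, whose trimmed mean (2nd to 98th percentile) lay near 1500 on every array. Of the probe sets, 20826 were paired with 1 gene symbol, 436 with several and 9780 with none. Arrays were grouped by the labels, and 0 columns lacked a sample.

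Signals were floored at 16 and log2 transformed. Probe sets with 1 symbol above the 40th percentile on at least 5 arrays were kept, 1 per gene by highest mean. limma 3.58.1 (R 4.3.3) fitted 1 mean per group over all 30 arrays (lmFit, eBayes with a trend); 10 contrasts were tested, each adjusted by Benjamini-Hochberg over 11503 genes, with an adjusted p under 0.05 as a call, and intervals are 95%. The procedure was tested on simulated data. The number of arrays, 5 per group, limits the precision.

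The members and lists were chosen with earlier results of these data known. The rule named every member called at 20 µM against vehicle or in the change of that effect, the 3 largest rises and falls elsewhere, 10 redox or catalytic members, and up to 3 called genes per other list; further members in short counts and the 10 genes that fell in vehicle were named after their values were seen. Alternatives were the floor, the filter, scaling, the fit, the choice of probe set, the threshold, blocks of array numbers and left-out arrays. Promoter windows came from RefSeq, build GRCr8. Probe sets annotated to several genes were left out.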

Additional observations from a re-analysis of the deposited data

Results flagged for a closer look

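In 5 groups of 5 arrays, 1 array stood apart from the other 4 by more than Dixon's critical value of 0.71 of the range. For Atp5f1c, vehicle replicate 4 at 48 h had a log2 signal of 15.62 against 15.30 to 15.34 in the others. For Cyc1 the same array had 14.14 against 14.19 to 14.21, and for Cox4i1 vehicle replicate 5 at 48 h had 15.90 against 15.69 to 15.74 (15.895, 15.687 and 15.735 before rounding). For Uqcrfs1, 0.8 µM replicate 4 at 24 h had 15.05 against 14.976 to 14.996, and for Ndufs1, 0.8 µM replicate 4 at 48 h had 12.97 against 12.74 to 12.80. Chance gives about 1 such array in 20 groups, which is 6.9 of the 138 groups of 23 members examined.

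The effect of 20 µM differed between 24 and 48 h, by the interaction test, for Ndufs4 (0.60), Ndufb2 (0.40) and Ndufb10 (0.30).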

How the results depend on the processing

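Of 55 calls on members over the 10 comparisons, 23 kept their direction and call under every setting tried, 31 kept their call without each array in turn, and 23 did both. The count of 3 higher changes of effect was 4 with quantile normalization and 3 under each other setting and left-out array. For 20 µM against vehicle at 24 h, 13 genes were lower; the count was 4 with centred arrays, 5 with the arrays of the compared groups alone and 5 at an adjusted p under 0.01, and 1 gene, Cyc1, was higher with quantile normalization. At 48 h the count of lower genes, 5, became 3 with no filter, 2 with centred arrays, 9 with quantile normalization, 2 without a trend and 2 at the threshold of 0.01. For 0.8 µM at 24 h, 1 gene was lower at a threshold of 0.10; at 48 h, 1 gene was lower with no filter, with the filter at the 60th percentile and at the threshold of 0.10, and the higher count of 1 became 0 with centred arrays, 2 with quantile normalization, 0 with the compared groups alone and 0 at the threshold of 0.01. For 20 µM against 0.8 µM at 24 h the lower count of 5 became 0 with centred arrays, 3 without a trend, 2 with the compared groups alone and 0 at the threshold of 0.01, with 1 higher under quantile normalization; at 48 h the lower count of 3 became 7 under quantile normalization. For time, the lower count of 10 in vehicle became 6 with centred arrays; at 0.8 µM the lower count of 2 became 0 with the compared groups alone and 3 genes were higher with quantile normalization; at 20 µM the higher count of 3 became 1 with centred arrays, 5 with quantile normalization, 1 without a trend, 1 with the compared groups alone and 0 at the threshold of 0.01, with 1 lower under quantile normalization, array weights and the threshold of 0.10. Without 1 array the counts at 20 µM against vehicle were 6 to 14 lower at 24 h, and 2 to 6 lower and 6 to 8 higher at 48 h. For 0.8 µM against vehicle they were 0 to 1 lower at 24 h (1 without 0.8 µM replicate 1), and 0 to 1 lower and 0 to 1 higher at 48 h. For 20 µM against 0.8 µM they were 1 to 5 lower and 0 to 1 higher at 24 h, and 2 to 3 lower and 3 to 6 higher at 48 h. For time they were 7 to 11 lower in vehicle, 2 lower and 0 to 1 higher at 0.8 µM, and 0 to 1 lower and 0 to 3 higher at 20 µM. Atp5me turned at 48 h: against vehicle it was -0.18 in the mean of its kept probe sets and -0.82 in the lowest, and against 0.8 µM it was -0.13 and -0.75. The causes of these differences were not tested, apart from the thresholds and the left-out arrays. Every block of 6 consecutive array numbers ran through the groups in the same order, so an array's place in its block and its dose and time cannot be told apart. The labels give no replicate numbers that pair the arrays. With the blocks of 6 array numbers as a term, 14 members were lower at 20 µM against vehicle at 24 h, and no count of members moved by over 1.5 times.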
